A study of Mus musculus with 15 samples.

Results

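The transcripts described here encode 9 transcription factors that set the effector state of T cells: Tbx21, Eomes, Prdm1, Zeb2, Id2, Id3, Bhlhe40, Irf8 and Ikzf2. They were taken by gene symbol, and 7 of the 9 were found among the 4567 genes in the gene tables; Eomes and Ikzf2 were in none of them. Tbx21, Prdm1, Id2 and Bhlhe40 were each in 3 of the 4 tables, Zeb2 and Id3 in 2, both of them CD8 comparisons with controls, and Irf8 in 1, CD8 Flica-positive cells against controls. No factor was in the table that compared Flica-positive with Flica-negative CD8+ T cells. A gene entered a table only by passing the authors' thresholds in that comparison, an absolute log2 fold change above 2 with an adjusted p below 0.05, so the absence of Eomes and Ikzf2 says nothing of their level.

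When a naive T cell meets antigen it exchanges the factors that keep it quiescent for others that drive killing, cytokine release and tissue entry. T-bet, the product of Tbx21, is a T-box protein that switches on interferon gamma and the cytotoxic genes, and Eomes is its close relative. Blimp-1 (Prdm1) and Zeb2 are zinc finger repressors of late effector cells. Id2 and Id3 have no DNA-binding domain of their own and hold E proteins away from their sites, the E-boxes. Bhlhe40 is a basic helix-loop-helix repressor induced by activation, Irf8 is an interferon regulatory factor of myeloid cells, B cells and activated CD8+ T cells, and Ikzf2 encodes Helios of the Ikaros family.

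RNA was sequenced from 15 libraries of FACS-sorted mouse T cells in 5 groups of 3. Donor T cells of strain C57Bl6 were transplanted with bone marrow into irradiated BALB/c mice, in which they cause acute graft-versus-host disease (aGvHD), and were sorted from spleen on day 7 with a fluorescent probe of active caspase-1 (Flica). The sort gave 2 CD8+ groups, Flica-positive and Flica-negative, and a CD4+ Flica-negative group. The controls were CD4+ and CD8+ Flica-negative T cells of C57Bl6 mice that had no transplant, on day 0. The controls had thus undergone neither transfer nor growth in a new host, and day, transfer and host cannot be told apart in any comparison with them. CD4+ Flica-positive cells were not among the libraries. According to the study's legend a sort drew on several mice with aGvHD but on few control mice, at times a single animal, and the labels call the libraries biological replicates.

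Sorted identity was checked with Cd8a, the only one of 12 T cell markers in a table. Its mean was 19748 ± 1700.0 normalized counts in CD8 controls, 13875 ± 1075 in CD8 Flica-negative and 10759 ± 1222 in CD8 Flica-positive libraries (SD, n = 3), against 69.4 ± 40.9 and 6.43 ± 3.45 in the CD4 groups. A normalized count is a deposited count divided by the size factor of its library. The deposited counts added up to between 2143579 and 3184674 in the 12 Flica-negative libraries and to between 7310375 and 11046043 in the 3 Flica-positive ones, while size factors were between 0.836 and 1.25. Mitochondrially encoded genes held 42.8% to 51.7% of those counts in Flica-positive libraries and 15.1% to 28.8% in the others. The 10 neutrophil markers summed to between 177581 and 333382 normalized counts in Flica-positive libraries and 10374 to 16118 in CD8 Flica-negative libraries.

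Levels between genes were compared per kilobase of exon. The length was the union of all annotated exons of a gene, 19942 bases for Zeb2 and 1791 for Id3. In both control groups the Id genes led: Id3 stood at 557 ± 165 and Id2 at 404 ± 50.6 normalized counts per kilobase in CD4 controls (SD, n = 3). In CD8 controls the same 2 genes stood at 572 ± 101 and 568 ± 81.2, a gap far smaller than the spread. By day 7 the order had changed, and Bhlhe40, Id2 and Tbx21 led the 7, in that order, in all 3 day-7 groups. In CD8 Flica-negative cells they reached 6309 ± 1001, 3303 ± 248 and 2172 ± 198 normalized counts per kilobase. Bhlhe40 and Id2 lay closest in Flica-positive cells, at 3425 ± 198 and 2995 ± 331. Zeb2 was last in every group, from 3.46 ± 0.852 per kilobase in CD8 controls to 33.4 ± 12.2 in Flica-positive cells, where its spread overlapped that of Id3 (42.9 ± 9.36). By normalized count alone Zeb2 stood above Id3 in CD8 Flica-negative cells (457 against 75.1) and in Flica-positive cells (666 against 76.9). The order of Zeb2 and Id3 there thus depends on the length used. Over all 15 libraries Bhlhe40 ranked 18 by mean normalized count among 4549 listed genes that are not mitochondrially encoded, and Zeb2 ranked 999. The plot of each library's normalized counts shows the same shift from Id3 to Bhlhe40, Id2 and Tbx21.

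**Figure D1:**
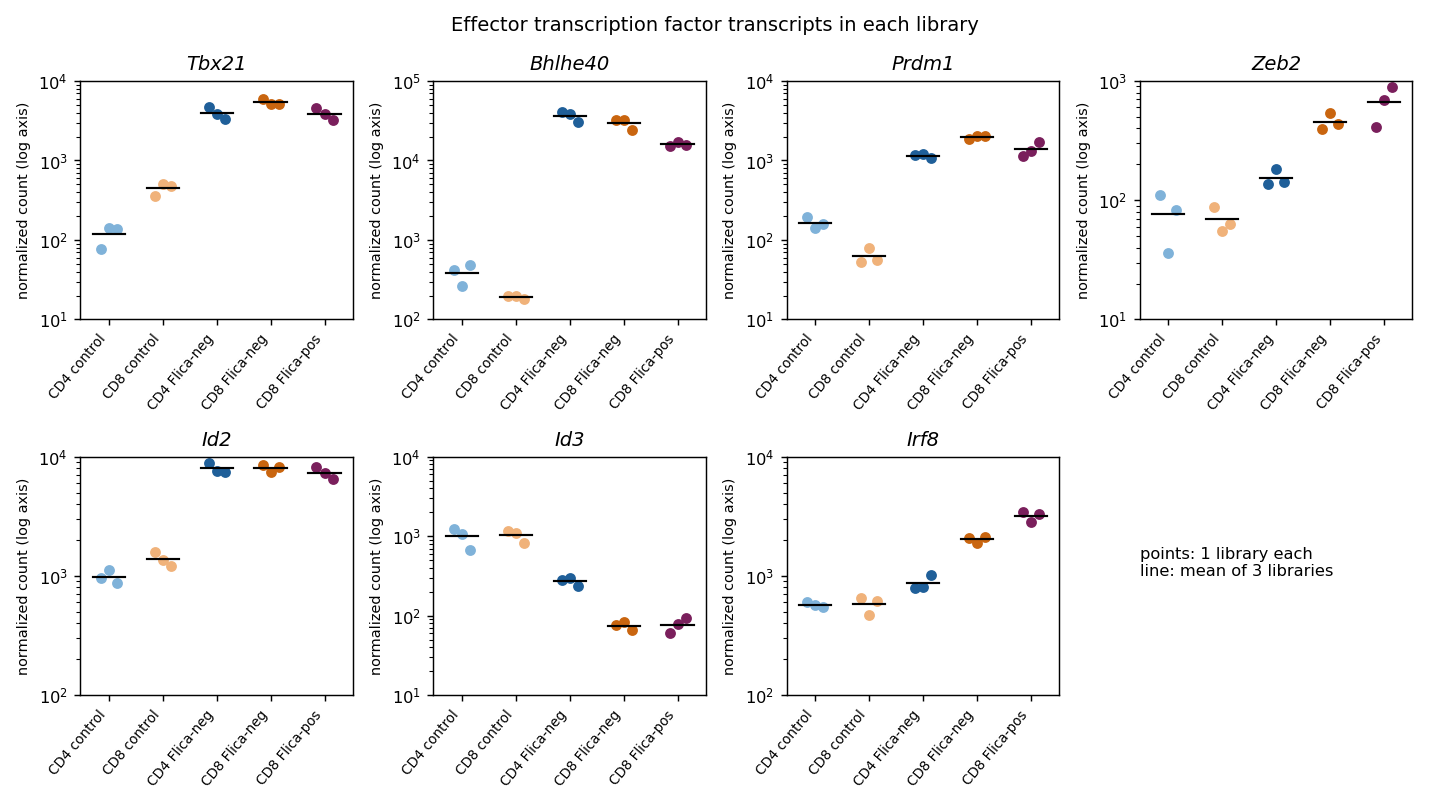
Normalized counts (log axis) of the 7 factors found in a table, by sorted population; each point is 1 library and each line the mean of 3. All but Id3 have higher means on day 7 than in their controls, and Id3 is lowest in the CD8 day-7 groups, at 59.8 to 93.3 normalized counts against 671 to 1244 in the controls.

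All 7 listed factors differed between day-7 CD8+ T cells and CD8 controls, 6 of them higher and Id3 lower. In CD8 Flica-negative cells 7 of 7 passed the test (the quasi-likelihood test of edgeR, Benjamini-Hochberg adjusted over the listed genes, adjusted p below 0.05), beside 68.7% of all listed genes tested. The 6 higher stood beside 38.8% of listed genes and the 1 lower beside 29.9%. In CD8 Flica-positive cells 7 of 7 passed, beside 71.5% of those tested (47.2% higher and 24.2% lower). In CD4 Flica-negative cells 6 of 7 passed, 5 higher and 1 lower, beside 60.9% (33% higher and 27.9% lower). The libraries of the 2 groups did not overlap for any of the 7 in these 3 comparisons, beside 75.1%, 79.9% and 69.6% of listed genes. The tables hold genes chosen on these same comparisons, so nothing is read from these counts. Both CD8 comparisons share the CD8 control libraries. In sorted bulk samples a change in the share of cells that carry a transcript and a change in its amount per cell cannot be told apart. Over all listed genes the median change against controls was 0.085, 0.61 and 2.04 on the log2 scale in the CD4 Flica-negative, CD8 Flica-negative and CD8 Flica-positive groups, in that order, with the deposited size factors. TMM factors, a scaling by trimmed means computed here from listed genes alone, shifted these medians by -0.21, -0.42 and -1.65. All 7 transcription factors kept their direction in all 3 comparisons.

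**Figure D2:**
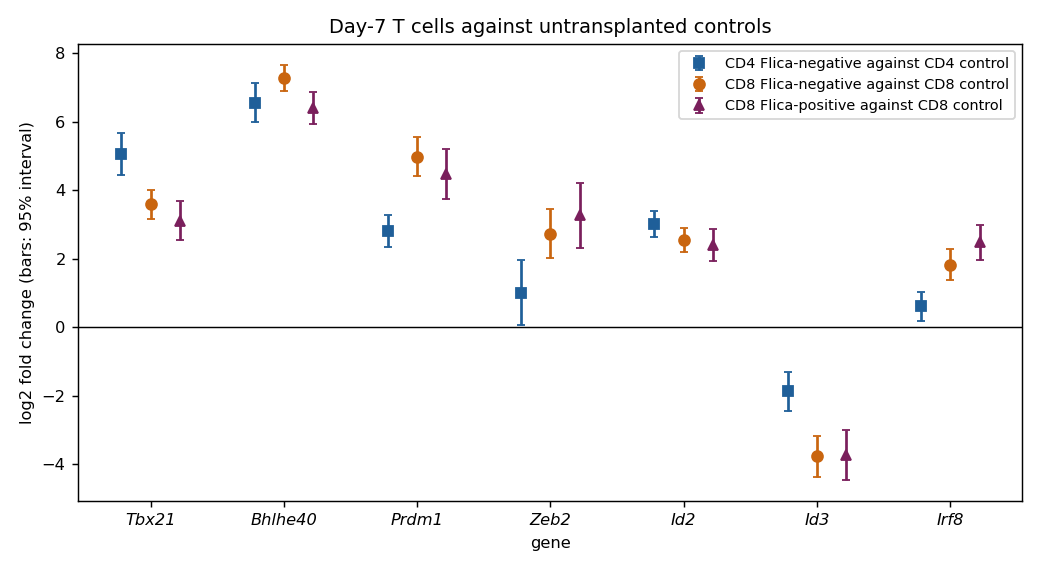
Log2 fold changes of the 7 factors between each day-7 population and the control of its lineage, with 95% intervals from the edgeR fit (3 libraries a group). Bhlhe40 shows the highest values, from 6.39 to 7.28, Id3 alone lies below 0, and the lower bound for Zeb2 in CD4+ cells is close to 0 (0.049).

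The promoter sequences of Tbx21, Prdm1, Id2 and Id3 are shown because the 4 genes include factors that rose and the 1 that fell, and because the Id proteins and Zeb2 act through E-boxes. Each window is the 250 bases before the RefSeq start site in GRCm38.p6, read along the gene's own strand, with every E-box (CANNTG, a palindromic pattern that both strands share) in capitals. The windows lie at chr11:97115332-97115581, minus strand, for Tbx21, chr10:44458749-44458998, minus strand, for Prdm1, chr12:25096093-25096342, minus strand, for Id2 and chr4:136143572-136143821, plus strand, for Id3.
Tbx21: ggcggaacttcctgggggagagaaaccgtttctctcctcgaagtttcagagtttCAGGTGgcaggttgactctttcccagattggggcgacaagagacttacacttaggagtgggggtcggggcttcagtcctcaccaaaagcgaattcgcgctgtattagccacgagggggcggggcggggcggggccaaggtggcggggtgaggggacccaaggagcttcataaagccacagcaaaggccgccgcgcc
Prdm1: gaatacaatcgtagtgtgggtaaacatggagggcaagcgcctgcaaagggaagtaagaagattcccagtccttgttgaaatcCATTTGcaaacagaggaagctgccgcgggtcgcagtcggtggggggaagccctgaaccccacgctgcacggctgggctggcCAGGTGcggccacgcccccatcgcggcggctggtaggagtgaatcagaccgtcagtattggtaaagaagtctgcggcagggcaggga
Id2: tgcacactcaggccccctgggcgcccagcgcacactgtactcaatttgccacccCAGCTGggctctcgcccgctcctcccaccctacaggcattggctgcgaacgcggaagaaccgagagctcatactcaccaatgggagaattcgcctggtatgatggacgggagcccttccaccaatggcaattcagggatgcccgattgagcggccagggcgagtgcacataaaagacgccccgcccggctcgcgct
Id3: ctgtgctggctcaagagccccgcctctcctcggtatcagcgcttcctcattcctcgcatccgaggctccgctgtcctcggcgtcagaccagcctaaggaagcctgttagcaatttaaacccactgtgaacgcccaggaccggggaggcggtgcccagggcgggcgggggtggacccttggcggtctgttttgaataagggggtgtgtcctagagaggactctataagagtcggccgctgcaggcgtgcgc
The Tbx21 window held 1 E-box, whose first base lies 196 bases before the start, and the Id2 window held 1 at the same distance. The Prdm1 window held 2, at 168 and 87 bases, and the Id3 window held 0. Any E-box was present in 66.2% of 32851 RefSeq promoter windows of this length, so its presence is the common case. The pattern CACCTG (either strand), which Zeb2 and E proteins bind and which is itself an E-box, was in the Tbx21 and Prdm1 windows and in 17.2% of all windows. Of the factors not printed, Zeb2 and Irf8 also rose in CD8+ cells: the 4 Zeb2 windows, 1 for each start, held 0 E-boxes. Of the 2 Irf8 windows the first held 0 and the other held 2, with CACCTG. The patterns CACGTG, which Bhlhe40 binds, and GGTGTGA, the core of a T-box site, were searched on both strands and were in none of the factors' windows, beside 6.02% and 3.33% of all windows. Of the 7 listed factors 6 had an entry in the promoter table; Bhlhe40 had none.

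Tbx21 (ENSMUSG00000001444, chr11:97098071-97115331, minus strand, GRCm38) rose in all 3 day-7 populations. It had 75.9, 143 and 136 normalized counts in CD4 control replicates 1 to 3 and 4773, 3848 and 3312 in CD4 Flica-negative replicates. CD8 controls had 362, 509.5 and 479, CD8 Flica-negative libraries 5972, 5148 and 5093 and CD8 Flica-positive libraries 4570.0, 3818 and 3223. Every day-7 library stood above every control, and CD8 controls stood above CD4 controls. The log2 fold change was 5.06 (SE 0.28, edgeR adjusted p = 8.35e-08) in CD4+ cells, which is 33.4-fold. It was 3.59 (SE 0.19, edgeR adjusted p = 2.66e-07) in CD8 Flica-negative cells and 3.10 (SE 0.25, edgeR adjusted p = 1.63e-05) in Flica-positive cells.

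Prdm1 (ENSMUSG00000038151, chr10:44437177-44528501, minus strand) encodes Blimp-1, which shuts off genes of memory precursors. It had 192, 141 and 157 normalized counts in CD4 controls and 1163, 1199 and 1069 in CD4 Flica-negative libraries. CD8 controls had only 52.9, 79.7 and 55.8, and CD8 Flica-negative libraries 1868, 2015 and 2056. Flica-positive libraries had 1134, 1330.2 and 1697, all below the CD8 Flica-negative ones and all above every control. The log2 fold change was 2.81 (SE 0.21, edgeR adjusted p = 7.16e-07) in CD4+ cells and 4.98 (SE 0.25, edgeR adjusted p = 2.10e-07) in CD8 Flica-negative cells, that is 6.99-fold and 31.5-fold. In Flica-positive cells it was 4.46 (SE 0.32, edgeR adjusted p = 1.06e-05).

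Zeb2 (ENSMUSG00000026872, chr2:44983632-45117395, minus strand) is a repressor that acts with T-bet in terminal effector cells. Per kilobase of all its annotated exons it had the lowest mean level of the 7 in every population. It had 112, 35.8 and 82.7 normalized counts in CD4 controls, 136, 183 and 143 in CD4 Flica-negative libraries and 88.1, 55.5 and 63.5 in CD8 controls. CD8 Flica-negative libraries had 395, 537 and 439 and Flica-positive libraries 408, 698 and 892. The 6 CD8 libraries of day 7 stood above the 3 CD4 ones, and the 2 control groups overlapped. The log2 fold change was 2.72 (SE 0.32, edgeR adjusted p = 4.37e-05) in CD8 Flica-negative and 3.27 (SE 0.41, edgeR adjusted p = 1.85e-04) in Flica-positive cells. In CD4+ cells it was 1.00 (SE 0.43, edgeR adjusted p = 0.0647), short of the threshold, with a 95% interval of 0.049 to 1.96. Without CD4 control replicate 1 it passed (edgeR adjusted p = 0.0338).

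Id2 and Id3 moved in opposite directions. Id2 (ENSMUSG00000020644, chr12:25093799-25097140, minus strand), the inhibitor that favours effector cells, had 958, 1121 and 879 normalized counts in CD4 controls and 1599, 1349.5 and 1208 in CD8 controls. On day 7 it had 8941, 7548 and 7415 in CD4 Flica-negative, 8605, 7406 and 8151 in CD8 Flica-negative and 8139.9, 7239 and 6529 in Flica-positive libraries. The 9 day-7 libraries overlapped with each other and none came near a control. The log2 fold changes were 3.01 (SE 0.17, edgeR adjusted p = 9.25e-08) in CD4+ cells, 2.54 (SE 0.16, edgeR adjusted p = 6.88e-07) in CD8 Flica-negative cells and 2.40 (SE 0.21, edgeR adjusted p = 2.20e-05) in Flica-positive cells.

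Id3 (ENSMUSG00000007872, chr4:136143497-136145755, plus strand), the inhibitor that marks naive and memory-forming cells, had 1244, 1078 and 671 normalized counts in CD4 controls and 1153, 1102 and 817 in CD8 controls. It had 279, 300.2 and 237 in CD4 Flica-negative libraries, 76.7, 82.1 and 66.5 in CD8 Flica-negative libraries and 59.8, 77.7 and 93.3 in Flica-positive libraries. Every control stood above every day-7 library, and the CD4 day-7 libraries stood above both CD8 day-7 groups. The log2 fold change was -1.88 (SE 0.26, edgeR adjusted p = 7.14e-05) in CD4+ cells, -3.77 (SE 0.27, edgeR adjusted p = 1.57e-06) in CD8 Flica-negative cells and -3.73 (SE 0.32, edgeR adjusted p = 2.18e-05) in Flica-positive cells. In CD8 Flica-negative cells Id3 was thus 13.6-fold lower than in controls, and in CD4+ cells 3.67-fold lower.

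The ratio of Id2 to Id3 counts within a library needs no scaling between libraries. Its geometric mean was 1.02 in CD4 controls (range 0.770 to 1.31) and 1.36 in CD8 controls (1.22 to 1.48). It was 29.3 in CD4 Flica-negative libraries (25.1 to 32.1), 107 in CD8 Flica-negative libraries (90.2 to 123) and 96.1 in Flica-positive libraries (70.0 to 136). The CD4 and CD8 day-7 ranges did not overlap, and the ranges of the 2 CD8 day-7 groups did. Id2 values overlapped between the lineages on day 7, so the lineage gap in this ratio rests on Id3. Id3 was listed only for its change in CD8+ cells, so that gap is given as a description.

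Bhlhe40 (ENSMUSG00000030103, chr6:108660629-108666925, plus strand), a repressor that sustains cytokine output in activated T cells, showed the highest fold change of the 7. It had 419, 260.1 and 479 normalized counts in CD4 controls and 198, 197 and 179 in CD8 controls. On day 7 it had 40333, 38038 and 30814 in CD4 Flica-negative and 32355, 32449 and 24243 in CD8 Flica-negative libraries, which overlapped. Flica-positive libraries had 15335, 17142 and 15863, below all 6 Flica-negative day-7 libraries. The log2 fold change was 6.56 (SE 0.26, edgeR adjusted p = 1.40e-08) in CD4+ cells, or 94.2-fold. It was 7.28 (SE 0.17, edgeR adjusted p = 2.10e-09) in CD8 Flica-negative cells, or 155-fold, and 6.39 (SE 0.21, edgeR adjusted p = 7.04e-07) in Flica-positive cells, or 84.1-fold.

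Irf8 (ENSMUSG00000041515, chr8:120736358-120756694, plus strand) rose in all 3 day-7 populations, least in CD4+ cells. It had 602, 567 and 548 normalized counts in CD4 controls, 649, 467 and 615 in CD8 controls and 789.9, 815 and 1011 in CD4 Flica-negative libraries. CD8 Flica-negative libraries had 2075, 1906 and 2141 and Flica-positive libraries 3450.3, 2809 and 3339. The control groups overlapped with each other, CD4 Flica-negative libraries stood just above them, and the 2 CD8 day-7 groups stood above those and apart from each other. The log2 fold change was 0.61 (SE 0.19, edgeR adjusted p = 0.0171) in CD4+ cells, 1.82 (SE 0.20, edgeR adjusted p = 2.69e-05) in CD8 Flica-negative cells and 2.47 (SE 0.23, edgeR adjusted p = 3.03e-05) in Flica-positive cells. The CD4+ call was lost with TMM scaling (0.36, edgeR adjusted p = 0.23) and without CD4 control replicate 2 or CD4 Flica-negative replicate 3 (edgeR adjusted p up to 0.056). B cells and myeloid cells also make Irf8, and their markers moved between these groups. The 8 B cell markers summed to 6364 to 8619 normalized counts in CD4 controls and 6313 to 9034 in CD8 controls. On day 7 they summed to 403 to 645 in CD4 Flica-negative, 359.9 to 429 in CD8 Flica-negative and 652 to 884 in Flica-positive libraries; Ms4a1, Blk and Ebf1 were at 0 in CD4 Flica-negative libraries and Ms4a1 in CD8 Flica-negative ones. The part of B cell RNA in the Irf8 values was not tested.

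CD4+ and CD8+ T cells already differed before transplant in 3 of the 7 factors, beside 13% of listed genes tested (7.11% higher and 5.85% lower in CD4 controls). No table was made from this comparison, but the genes were chosen on contrasts that use the same control libraries, so the choice is not independent of it. Zeb2, Id3 and Irf8 were listed only through comparisons with CD8 controls. Tbx21 was lower in CD4 controls than in CD8 controls, by a log2 difference of -1.92 (SE 0.27, edgeR adjusted p = 7.21e-05). Prdm1 was higher in CD4 controls (1.38, SE 0.33, edgeR adjusted p = 0.00912), and so was Bhlhe40 (1.01, SE 0.25, edgeR adjusted p = 0.0103). The Prdm1 call was lost without CD4 control replicate 1 (edgeR adjusted p = 0.0647) and the Bhlhe40 call without CD4 control replicate 1 or 3 (edgeR adjusted p up to 0.0633). Id2 did not pass (-0.49, SE 0.17, edgeR adjusted p = 0.0772), although its 3 CD4 control values lay below the 3 CD8 ones. It passed in a fit with the replicate number as a block. Libraries did not overlap for 4 of the 7 factors, beside 29.7%. For Id3, Zeb2 and Irf8 the 95% intervals of the log2 difference were -0.50 to 0.42, -0.81 to 1.11 and -0.40 to 0.38.

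On day 7, CD4 and CD8 Flica-negative cells differed in 4 of the 7 factors, beside 22.7% of listed genes tested (10.1% higher and 12.6% lower in CD4+ cells). No table was made from this comparison, but Zeb2, Id3 and Irf8 were listed only for their change in CD8+ cells, which bears on their difference here. Of the 4 factors listed through both lineages, Prdm1 alone passed. Zeb2 was lower in CD4+ cells, by a log2 difference of -1.57 (SE 0.26, edgeR adjusted p = 5.95e-04), and so were Irf8 (-1.23, SE 0.17, edgeR adjusted p = 1.69e-04) and Prdm1 (-0.79, SE 0.16, edgeR adjusted p = 0.00271). Id3 was higher in CD4+ cells (1.86, SE 0.29, edgeR adjusted p = 4.18e-04), 3.62-fold. Libraries did not overlap for 5 of 7 factors, beside 39.7%; the fifth was Tbx21, at -0.44 (SE 0.15, edgeR adjusted p = 0.0527), which passed without CD4 Flica-negative replicate 1 (edgeR adjusted p = 0.0272). Id2 had a 95% interval of -0.29 to 0.26, and Bhlhe40 had 0.014 to 0.57, with an edgeR adjusted p of 0.123 that fell to 0.0428 without CD4 Flica-negative replicate 3. Tbx21 and Bhlhe40 also passed in a fit with the replicate number as a block. Beside these values, neutrophil markers summed to 2305 to 6596 normalized counts in CD4 Flica-negative and 10374 to 16118 in CD8 Flica-negative libraries, and macrophage markers (10 of 12 listed) to 263 to 771 and 972 to 2075. Their part in these differences was not tested.

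The change from control to day 7 itself differed between lineages for 4 of the 7 factors, beside 10.4% of listed genes (5.7% with a positive and 4.66% with a negative term). It was tested as an interaction in edgeR over 12 libraries, the CD4 change minus the CD8 change. Tbx21 rose more in CD4+ cells, by 1.48 (SE 0.31, edgeR adjusted p = 0.00472), from a lower control level to a day-7 level closer to that of CD8+ cells. Prdm1 showed the reverse: it rose less in CD4+ cells (-2.17, SE 0.30, edgeR adjusted p = 1.11e-04), from the higher control level to the lower day-7 level. Id3 fell less in CD4+ cells (1.89, SE 0.36, edgeR adjusted p = 0.00217), and Irf8 rose less (-1.21, SE 0.27, edgeR adjusted p = 0.00727). The term is built from contrasts that the tables were selected on, and Id3 and Irf8 were listed only for a large change in CD8+ cells, so their terms are given as descriptions. The Irf8 term did not pass with TMM scaling (-1.16, edgeR adjusted p = 0.107). For Zeb2 the term was -1.72 (SE 0.54, edgeR adjusted p = 0.051), which passed with DESeq2 (adjusted p = 0.0142) and without CD4 control replicate 2 or CD8 control replicate 1 (edgeR adjusted p down to 0.0128). For Id2 and Bhlhe40 it was 0.48 (SE 0.22, edgeR adjusted p = 0.183) and -0.72 (SE 0.26, edgeR adjusted p = 0.092), and Bhlhe40 passed without CD4 control replicate 2 (edgeR adjusted p = 0.0112). The ratio of Tbx21 to Prdm1 counts, free of scaling, had a geometric mean of 0.702 in CD4 and 7.22 in CD8 controls but 3.44 in CD4 and 2.73 in CD8 Flica-negative libraries.

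**Figure D3:**
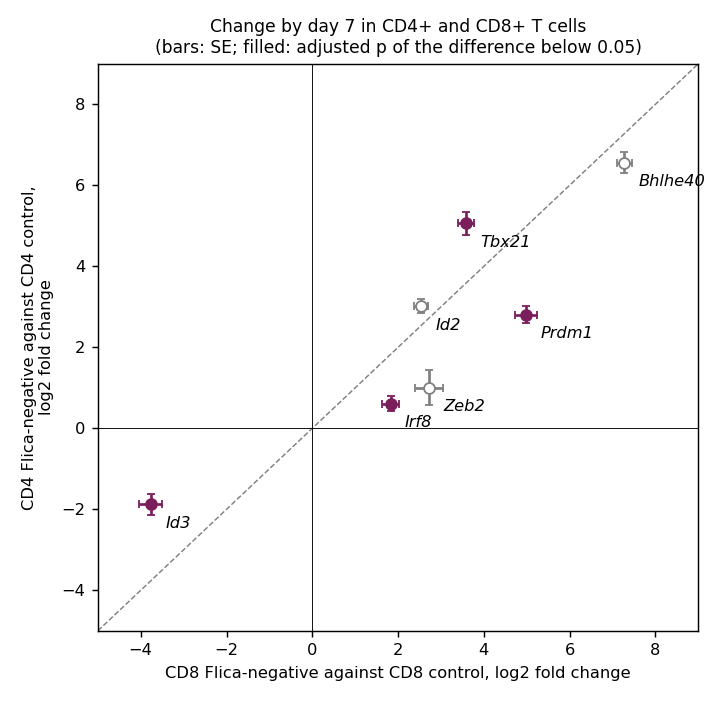
Log2 fold change from control to day 7 in CD8 Flica-negative (x axis) and CD4 Flica-negative cells (y axis), with SE; the dashed line marks equal change, and filled points have an adjusted p of the difference below 0.05. Tbx21 and Id3 lie above the line, and Prdm1 and Irf8 below it; Id2, Bhlhe40 and Zeb2 are open.

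The Flica probe split CD8+ T cells of mice with aGvHD by active caspase-1, and between Flica-positive and Flica-negative cells 2 of the 7 factors passed the test, beside 24.5% of listed genes (21.7% higher and 2.8% lower in Flica-positive cells). Bhlhe40 was lower in Flica-positive cells, by a log2 fold change of -0.88 (SE 0.18, edgeR adjusted p = 0.00475), or 1.84-fold. Irf8 was higher with the deposited size factors, by 0.65 (SE 0.19, edgeR adjusted p = 0.0304), or 1.57-fold, a call that TMM factors did not keep. Irf8 was listed only for its level in Flica-positive cells against controls, so a higher value in Flica-positive cells is no independent result. Tbx21 (-0.48, SE 0.20, edgeR adjusted p = 0.103) and Prdm1 (-0.51, SE 0.21, edgeR adjusted p = 0.103) did not pass, although in both the 3 Flica-positive libraries lay below the 3 Flica-negative ones. Both passed in a fit with the replicate number as a block. Prdm1 passed without Flica-positive replicate 3 (edgeR adjusted p = 0.0392). Libraries did not overlap for 4 of the 7 factors, beside 46.1%. For Zeb2 the value was 0.54 (SE 0.30, edgeR adjusted p = 0.21), with a 95% interval of -0.13 to 1.21. For Id2 the interval was -0.54 to 0.26 and for Id3 -1.09 to 1.16.

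These values depend on how the Flica-positive libraries are scaled. Over all listed genes the median change was 0.45 on the log2 scale with the deposited size factors and -0.11 with TMM factors, a shift of -0.56. The TMM factors were computed from listed genes alone, which were chosen for large changes. With the deposited factors 21.7% of these genes were higher in Flica-positive cells and 2.8% lower. Which scaling is closer to the full transcriptome was not tested. Under TMM, Bhlhe40 stood at -1.49 and Tbx21, Prdm1 and Id2 passed as lower, at -1.07, -1.11 and -0.72 (edgeR adjusted p = 0.0105, 0.00237 and 0.0447). Irf8 was at 0.064 (edgeR adjusted p = 0.861) and no longer called, and Zeb2 and Id3 turned to -0.062 and -0.57. Bhlhe40 was the 1 factor called under both scalings. The Irf8 call with the deposited factors was also lost without any 1 of CD8 Flica-negative replicates 1 to 3 or Flica-positive replicate 1 (edgeR adjusted p up to 0.125). The ratio of Bhlhe40 to Irf8 counts within a library ranged over 11.3 to 17.0 in Flica-negative and 4.44 to 6.10 in Flica-positive CD8 libraries, with no overlap. Irf8 was listed only for its level in Flica-positive cells, which bears on this ratio, so it is given as a description.

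**Figure D4:**
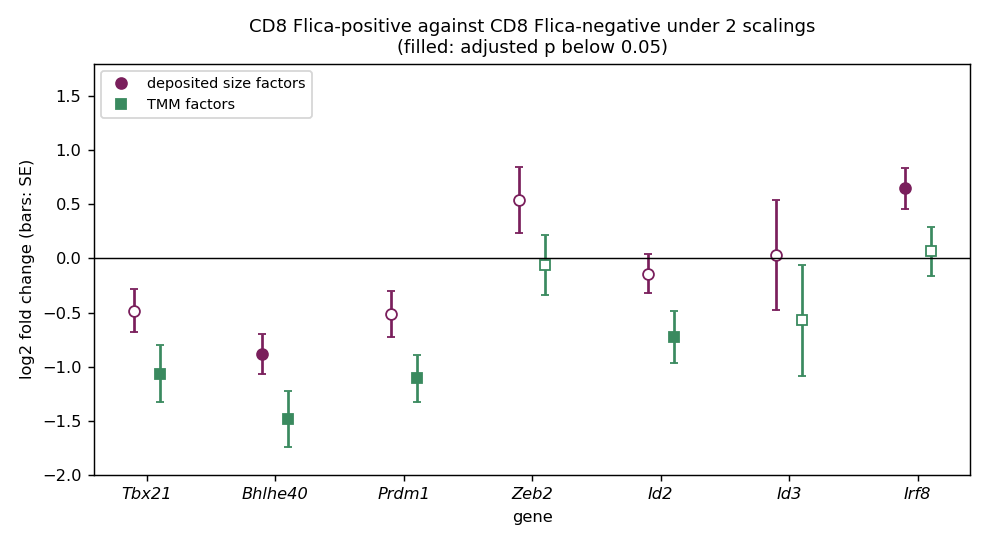
Log2 fold changes between CD8 Flica-positive and Flica-negative cells with the deposited size factors (circles) and with TMM factors (squares), with SE; filled symbols have an adjusted p below 0.05. Every TMM value lies lower, Zeb2 and Id3 cross from above to below 0, and of the 7 factors only Bhlhe40 is filled under both scalings.

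Markers of myeloid cells moved with the Flica sort and stand beside the Irf8 and Zeb2 values, since myeloid cells such as macrophages make both transcripts. Macrophage markers (10 of 12 in a table) summed to 972 to 2075 normalized counts in CD8 Flica-negative and 17973 to 37451 in Flica-positive libraries, and 8 of the 10 were called higher. Mertk was at 0 in both CD4 groups and C1qa in CD8 controls, and none was at 0 in the CD8 day-7 groups. Neutrophil markers (10 of 10) were all called higher in Flica-positive cells, with none at 0 in any day-7 group. Of all listed genes 21.7% were higher in this comparison. The neutrophil markers and the called macrophage markers were listed through this same comparison, so nothing is read from the number called. Of the macrophage markers, Lyz2 had 1408 ± 570.0 and 26217 ± 10046 normalized counts in Flica-negative and Flica-positive CD8 libraries. The part of myeloid RNA in the Irf8 and Zeb2 differences was not tested. Flica-positive replicate 1 had the lowest macrophage sum (17973) and neutrophil sum (177581) of its group and the highest erythroid sum (110207). Its Zeb2 value (408 normalized counts) was the lowest of the group and its Irf8 value (3450.3) the highest. Nothing is read from this 1 library.

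Other cell types were checked in the same way. Dendritic cell markers (4 of 8) summed to 6957 to 9870.4 in CD8 Flica-negative and 5079 to 6590.0 in Flica-positive libraries, most of it from Itgax, which activated CD8+ T cells also make. The sum hides opposite changes: 1 of the 4 was called lower, Itgax (8514 ± 1538 and 5234 ± 685), and 1 higher. The higher one was Flt3 (14.7 ± 8.60 and 210 ± 30.1), named after its values were seen and listed through this same comparison. Natural killer cell markers (4 of 6) summed to 839 to 974 and 446 to 491 in these groups, and Jchain, the 1 plasma cell marker of 6 in a table, to 48.3 to 119 and 695 to 1045. Erythroid markers (4 of 7) summed to 268 to 3531 and 1343 to 110207, with a wide spread between libraries. Klra8 and Klra9 were at 0 in Flica-positive and CD4 Flica-negative libraries, and Ncr1 in the latter. The part of these cell types in the factors' values was not tested.

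**Figure D5:**
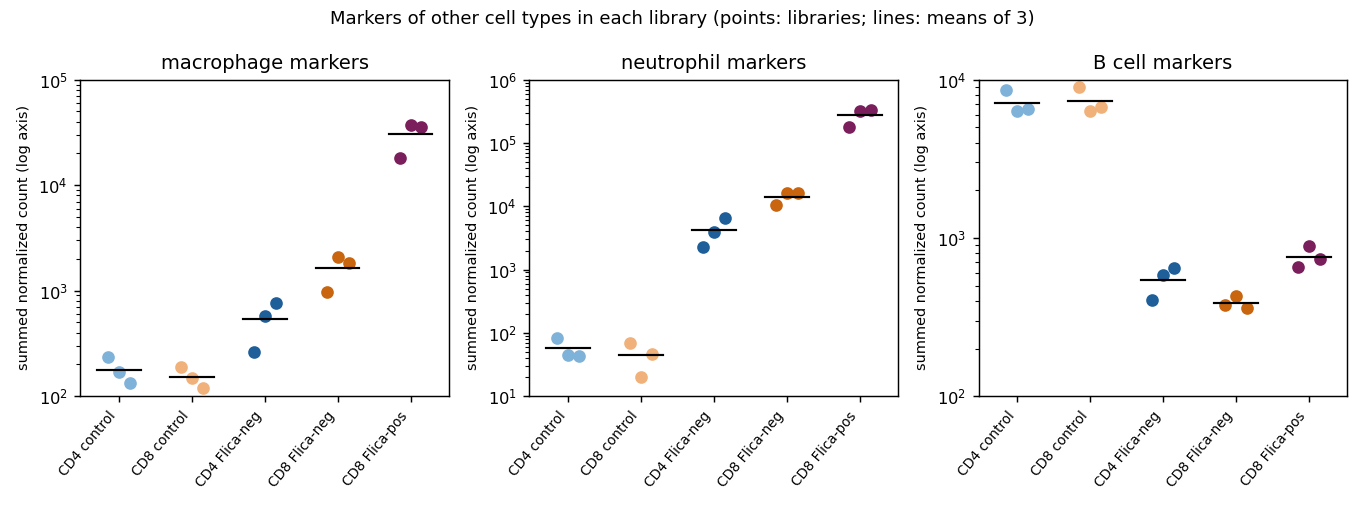
Summed normalized counts (log axis) of macrophage, neutrophil and B cell markers in each library, by sorted population; points are libraries and lines means of 3. Macrophage and neutrophil sums are highest in CD8 Flica-positive libraries, and B cell sums are highest in both control groups.

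Of 52 other transcription factors of T cells on 4 lists, 22 were in a table. These and the genes of the further lists were selected on the same day-7 comparisons with controls, in which 33%, 38.8% and 47.2% of listed genes were higher and 27.9%, 29.9% and 24.2% lower (CD4 Flica-negative, CD8 Flica-negative, CD8 Flica-positive). Batf3, Hlx and Ifngr2 were also selected on the comparison of Flica-positive with Flica-negative cells, so their differences there are not independent. In that comparison 21.7% of listed genes were higher and 2.8% lower. The counts below describe the lists only. The quiescence and memory factors moved with Id3. All 5 found of 11 (Tcf7, Satb1, Lef1, Foxo1 and Bach2) were lower on day 7 in CD4 Flica-negative, CD8 Flica-negative and CD8 Flica-positive cells, with median log2 fold changes of -1.86, -2.03 and -2.84 beside 0.085, 0.61 and 2.04 for all listed genes. Tcf7, which encodes TCF-1 of stem-like T cells, fell from 28613 ± 1437 to 1523 ± 162 normalized counts in CD8 Flica-negative cells. In CD4+ cells it fell from 35867 ± 2437 to 7484 ± 1372. Bach2, a repressor of effector genes, had a log2 fold change of -3.00 in CD4+ and -4.61 in CD8 Flica-negative cells (edgeR adjusted p = 5.43e-07 and 3.63e-07). The CD4 change was smaller than the CD8 change for Tcf7, Bach2 and Satb1, with interaction terms of 1.97, 1.61 and 0.70 (edgeR adjusted p = 3.43e-06, 0.00254 and 0.0131). Satb1 was listed only for its change in CD8 Flica-positive cells, so its term is given as a description. Between Flica-positive and Flica-negative cells 4 of the 5 were lower, Bach2 was at -1.44 (edgeR adjusted p = 0.113), and 5 of 5 were lower under TMM scaling.

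No E protein (Tcf3, Tcf4, Tcf12) and neither Id1 nor Id4 was in a table, so the partners that the Id proteins hold were not analysed here. Of 16 activation and exhaustion factors 11 were listed; 9 of the 10 tested rose in CD4+ and in CD8 Flica-negative cells and Myc fell in both, beside 33% and 38.8% of listed genes that rose. Nr4a1, a reporter of antigen receptor signals, went from 2301 ± 464 to 11104 ± 1799.9 normalized counts in CD8 Flica-negative cells. Irf4, which acts with the AP-1 factor Batf, rose by 2.61 in CD8 Flica-negative cells on the log2 scale (edgeR adjusted p = 1.01e-06). Between Flica-positive and Flica-negative cells 4 of 11 were lower (Nr4a2, Nr4a3, Maf and Irf4, from -0.69 to -0.57, edgeR adjusted p = 0.0293 to 0.0441), beside 2.8% of listed genes, and 1 was higher, beside 21.7%. That 1 was Batf3, at 50.4 ± 2.28 normalized counts against 1.42 ± 2.46, named after its values were seen. Under TMM scaling 7 were lower and 1 higher.

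Of 20 lineage, STAT, IRF, Runx and Ikaros factors 6 were listed, among them Runx2, Rora, Zbtb7b, Hopx and Hlx, all 6 higher in both CD8 day-7 groups (5 and 4 of 6 under TMM scaling). In CD4+ cells 4 were higher and Zbtb7b, the CD4 lineage factor, was lower (-0.56, edgeR adjusted p = 0.0101). Runx2, a Runx factor of effector T cells, went from 92.8 ± 50.5 to 6779.8 ± 574 normalized counts in CD4+ cells and from 369 ± 62.3 to 5009 ± 451 in CD8+ cells. Rora and Hlx moved apart between Flica-positive and Flica-negative cells, at -1.15 and 3.48 (edgeR adjusted p = 8.85e-04 and 2.47e-05). Under TMM scaling they stood at -1.74 and 2.88.

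Cytokine receptors that feed these factors were listed for 8 of 11, and 7 of the 8 were higher in each day-7 population than in its control (4 of 8 under TMM scaling in Flica-positive cells), beside 33%, 38.8% and 47.2% of listed genes. Their median log2 fold changes were 3.44 in CD4+, 2.89 in CD8 Flica-negative and 2.52 in Flica-positive cells. Il18rap, a chain of the interleukin-18 receptor, rose from 112 ± 31.4 to 10593 ± 1205 normalized counts in CD4+ cells and from 873 ± 68.1 to 10459.6 ± 982 in CD8+ cells. Il2ra, the high-affinity chain of the interleukin-2 receptor, rose from 20.6 ± 13.6 to 1902 ± 341 in CD8+ cells. The 1 receptor that fell was Ifngr2, the signalling chain of the interferon gamma receptor, named after its values were seen. Its log2 fold change was -2.68 in CD4+ and -4.26 in CD8 Flica-negative cells (edgeR adjusted p = 7.03e-06 and 1.84e-05). Between Flica-positive and Flica-negative cells it was higher (2.98, edgeR adjusted p = 0.0037) and Il18r1 lower (-0.65, edgeR adjusted p = 0.047), while under TMM scaling Ifngr2 alone was higher and the other 7 were lower.

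Effector genes of the T-bet, Eomes and Zeb2 programme were listed for 16 of 17. All 16 rose in CD4+ cells and 15 rose in each CD8 day-7 group (11 in Flica-positive cells under TMM scaling, with 1 lower); Klrd1 was the exception, named after its values were seen, at 0.43 and -0.25 (edgeR adjusted p = 0.0854 and 0.362). Of all listed genes 33% rose in CD4+ cells, 38.8% in CD8 Flica-negative and 47.2% in Flica-positive cells. The median log2 fold changes were 4.36, 5.67 and 5.37 in CD4+, CD8 Flica-negative and CD8 Flica-positive cells. Gzmb, the granzyme B gene, reached 8352 ± 208 normalized counts in CD4+ cells and 40953 ± 5798 in CD8 Flica-negative cells. Prf1, the gene of the pore protein perforin, reached 1227 ± 133 and 8328 ± 999. On day 7, 12 of the 16 were lower in CD4 than in CD8 Flica-negative cells and none was higher. Under TMM scaling 11 were lower and none higher. Of listed genes 12.6% were lower, and the Tbx21 difference given above was -0.44. Between controls 7 of the 16 were already lower in CD4+ cells and 2 higher, beside 5.85% and 7.11% of listed genes. The median log2 difference was -1.13 between controls and -1.17 on day 7. The interaction term was called positive for 4 and negative for 7 (4 and 6 under TMM scaling), beside 5.7% and 4.66% of listed genes. Between Flica-positive and Flica-negative cells 2 of 16 were lower, Ifng (-0.61, edgeR adjusted p = 0.0404) and Fasl (-0.81, edgeR adjusted p = 0.0271), both named after their values were seen, while Gzmb was at -0.023 and Prf1 at -0.054. Of all listed genes 2.8% were lower in this comparison. Under TMM scaling 10 of 16 were lower and none higher.

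Genes that fall under Blimp-1 were listed for 4 of 7, among them Il7r, Ccr7 and Cxcr5. All 4 fell in both CD8 day-7 groups, and 2 fell in CD4+ cells. Ccr7, the lymph node homing receptor, went from 7996 ± 537 to 209.8 ± 61.8 normalized counts in CD8 Flica-negative cells and from 8071 ± 221 to 1136 ± 140.3 in CD4+ cells. Il7r, the interleukin-7 receptor chain of long-lived T cells, was at 0.20 in CD4+ cells (edgeR adjusted p = 0.208) and fell by 1.35 on the log2 scale in CD8 Flica-negative cells (edgeR adjusted p = 8.01e-05). All 4 interaction terms were positive, from 1.55 to 2.42 (edgeR adjusted p up to 6.03e-04), beside 5.7% of listed genes called with a positive term. Il7r and Cxcr5 were listed only for their change in CD8+ cells, which bears on their terms. All 4 terms are thus given as descriptions.

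The genes nearest to each factor in pattern were found by Pearson's r of log2(normalized count + 1) over the 15 libraries, among 1638 listed genes with a mean of at least 100. These points share 5 groups of 3 libraries, so r mainly reflects the group means and is a description only. Id2 was nearest to Gna15 (r = 0.996) and Pmaip1 (0.995), and Bhlhe40 to Farp1 (0.995) and Sema7a (0.991). Tbx21 was nearest to Gpr55 (0.994) and Ildr1 (0.993). Prdm1 was nearest to Rab27a (0.989), whose product docks lytic granules, and Stx11 (0.988), whose product fuses them. Id3 was nearest to Tlr1 (0.986) and Rgs10 (0.982). Zeb2 was nearest to Fcer1g (0.966), an adaptor of Fc receptors in myeloid and natural killer cells, and Gpr160 (0.964). Irf8 was nearest to Serpinb1a (0.973) and Fpr2 (0.972), a formyl peptide receptor of phagocytes that was at 0 in all 6 controls. The values of r for Zeb2 and Irf8 were the lowest of the 7.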

How the data were processed

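RNA from FACS-sorted splenic T cells was sequenced paired-end from poly(A)-selected libraries, 3 for each of 5 groups, grouped by the labels' titles. Per the submitters' processing notes the authors used STAR 2.7.1a, GRCm38 and DESeq2; the counting tool and annotation were not given in the sources used here. The deposited tables hold counts per gene for all 15 libraries and the authors' mean signal (mean normalized count), only for genes past their thresholds, so library depth is unknown and every adjusted p runs over listed genes. The authors' fold changes and p-values served only to check those thresholds, and their enrichment results were not used.

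The authors' size factors were solved from counts and means (largest relative error 6e-15). Genes with at least 10 counts summed over the libraries compared were tested with edgeR 4.0.16 in R 4.3.3 (quasi-likelihood test, Benjamini-Hochberg adjustment, threshold 0.05) on those factors, in 2-group fits, after testing on simulated data. SE was the log2 fold change divided by the square root of F. DESeq2 1.42.0, TMM scaling, a common fit, other count filters, a replicate block and leaving out libraries were the alternatives. Lengths and positions came from GENCODE M21 and promoters from RefSeq (GRCm38.p6).

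The factors, lists and tests were chosen with earlier results of these data known. The text names every factor, the 6 listed genes of highest mean per list and the 2 nearest genes in pattern per factor; others are named as chosen after their values were seen. A few listed genes are not reported here. The p-values measure the spread between these libraries, since no source ties a library to its own animals. Reads shared between Hba-a1 and Hba-a2, or Hbb-bs and Hbb-bt, could be split by the counting.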

Additional observations from a re-analysis of the deposited data

Results flagged for a closer look

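The change from control to day 7 differed between CD4+ and CD8+ Flica-negative cells for 4 of the 7 factors by the interaction term of the edgeR fit. The share of all listed genes called was 10.4% (5.7% with a positive and 4.66% with a negative term). The CD4 change minus the CD8 change was 1.48 for Tbx21 and 1.89 for Id3 on the log2 scale. It was -2.17 for Prdm1 and -1.21 for Irf8. Irf8 and Id3 were listed only for their change in CD8+ cells, so their terms are not independent of how genes entered the tables. With TMM scaling the Irf8 term was -1.16 (edgeR adjusted p = 0.107).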

How the results depend on the processing

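Of the 49 values of the 7 factors in 7 comparisons, 47 kept their direction and side of the threshold with DESeq2, 48 in a fit of all 5 groups, 47 with a filter at a mean of 10 normalized counts, 48 without a filter and 40 with TMM scaling. TMM turned Zeb2 to -0.062 and Id3 to -0.57 between Flica-positive and Flica-negative cells, turned Id2 to 0.070 between CD4 and CD8 Flica-negative cells, and lowered the count of listed genes with an interaction from 469 to 285. Calls lost or gained under TMM stand with the results. Other calls that changed were Zeb2 in CD4+ cells in the common fit (edgeR adjusted p = 0.0388), Tbx21 between CD4 and CD8 Flica-negative cells without a filter and with the stricter one (edgeR adjusted p = 0.0456 and 0.0472), the Zeb2 interaction with the stricter filter (edgeR adjusted p = 0.043) and Id2 between controls with DESeq2 (adjusted p = 0.0423). The cause was not tested. Leaving out 1 library kept 308 of 336 values; Id3 then ranged over -0.13 to 0.19 between Flica-positive and Flica-negative cells, Id2 over -0.11 to 0.035 between CD4 and CD8 Flica-negative cells, and Zeb2, Id3 and Irf8 over -0.22 to 0.49, -0.23 to 0.18 and -0.14 to 0.082 between controls. The number of listed genes called ranged over 685 to 1010 between Flica-positive and Flica-negative cells, lowest without CD8 Flica-negative replicate 2, and over 609 to 939 between CD4 and CD8 Flica-negative cells, lowest without CD4 Flica-negative replicate 2, against 1049 and 964 with all libraries. Same-numbered Flica-positive and Flica-negative libraries deviated together with r = 0.108, 0.032 and 0.061 over 4567 genes. Over the 2202 genes whose mean reached 50, r was 0.170, 0.047 and 0.168. Same-numbered CD4 and CD8 Flica-negative libraries had r = 0.216, 0.074 and 0.247 over those 2202 genes. Each Flica-positive and each CD4 Flica-negative library correlated best with its own number. In both comparisons the second pair stayed under 0.1, so the numbers were not taken as pairs. The labels do not say whether a number marks 1 sort. With the number as a replicate block 43 of 49 values kept their call, 5 passed in addition (Tbx21 and Prdm1 between Flica-positive and Flica-negative cells, at -0.49 and -0.53, Tbx21 and Bhlhe40 between CD4 and CD8 Flica-negative cells, and Id2 between controls), Irf8 between controls turned to 0.00098, and the genes called between Flica-positive cells and controls went from 3244 to 2107. The tables hold only selected genes, so depth outside them is unknown.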
